A study of Mus musculus with 8 samples.

Results

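The 8 genes described here encode the core of insulin and insulin-like growth factor (IGF) signalling: the ligands Igf1 and Igf2, the receptors Insr, Igf1r and Igf2r, the docking proteins Irs1 and Irs2, and Pik3r1, the main regulatory subunit of phosphoinositide 3-kinase (PI3K). They were taken by symbol from the feature list of run B and matched by identifier to that of run A, which found all 8 among the 30406 gene identifiers that both runs share. Transcripts were measured by 10x Genomics 3' single-cell RNA-seq in YFP-positive cells. The cells came from male mice of genotype ROSA26-eYFP+/+ Cdh5-CreERT2+, whose Cre recombinase is driven by the endothelial Cdh5 promoter and needs tamoxifen to act. All mice, in every group, ate tamoxifen diet for 2 weeks from the age of 6 weeks. From 8 weeks they received normal chow (5.8% fat) or high fat diet (HFD, 60% fat) for 12 to 13 weeks. The 4 groups were mesentery on chow, mesentery on HFD, epididymal adipose tissue on chow and epididymal adipose tissue on HFD. Each group has 2 libraries, 1 from run A and 1 from run B of the experiment, and each library pooled the tissue of 6 mice (n = 2 pools in each group). The tissues of all groups were kept in buffers with actinomycin D, an inhibitor of transcription, and the sources used here do not give the strain background.

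Insulin and IGF-1 bind receptor tyrosine kinases, which phosphorylate the docking proteins IRS1 and IRS2. These recruit PI3K through its regulatory subunit and so activate AKT, which acts on FOXO transcription factors, on glucose transport, on protein synthesis through mTOR and, in endothelium, on nitric oxide synthase. Endothelial insulin receptors also serve to move insulin from blood to tissue. IGF-2 acts through the insulin and IGF-1 receptors, whereas the IGF-2 receptor, which is also the cation-independent mannose 6-phosphate receptor, has no kinase and takes IGF-2 and lysosomal enzymes into the cell.

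Total counts of unique molecular identifiers (UMIs) were 3461360 to 6714473 per library in run A and 18829960 to 36779289 in run B. Of 27944 barcodes, 23207 were used, and 14635 of these lay in clusters with endothelial markers that were not called mixed with a second cell type. Another 4334 cells carried endothelial markers together with those of adipocytes, mural cells or red cells and were left out of the endothelial-like set. Arterial-like cells numbered 2783, capillary-like cells 4265, venous-like cells 2580 and lymphatic-like cells 2552, and the names carry "-like" because the classes were rebuilt from markers. Between 1.64 and 13.99% of the endothelial-like cells of the run A libraries were capillary-like, against 19.14 to 48.64% in run B, and lymphatic-like shares ran the other way (26.60 to 56.01% against 5.55 to 9.70%). Any 2 libraries shared 0 to 10 cell barcodes. The labels call the cells endothelial, yet adipocyte-like, macrophage-like, fibroblast-like, T-like, B-like and mesothelial-like clusters also passed the sort. Levels below are in CPM, the UMIs of the gene scaled to a fixed total of UMIs over all cells of that class in that library, and compare a gene with itself, not with other genes.

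Differences between classes were tested by edgeR (quasi-likelihood) over the 32 sums of library and class, with the library as a block. Calls were made below 0.05 after Benjamini-Hochberg adjustment over 10199 genes. The 8 genes had been left out of the genes used for clustering. Of the 6 that could be tested, 3 differed between arterial-like and capillary-like cells, where 26.2% of all tested genes did, and 3 between arterial-like and venous-like cells (26% of all genes). The count was 5 of 6 for arterial-like against lymphatic-like cells (42.7%), 2 of 6 for capillary-like against venous-like cells (26.4%), 6 of 6 for capillary-like against lymphatic-like cells (41.7%) and 5 of 6 for venous-like against lymphatic-like cells (38.4%). Irs1 and Irs2 had too few counts for these tests.

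Diets were compared within each tissue and tissues within each diet, in all endothelial-like cells and in each class, by the same edgeR test over the 8 libraries. With group means alone, none of 137 tests of these genes over 22 comparisons was called, and 0% of all genes were called in any of the 22 comparisons. Of the 137 tests, 4 had an unadjusted p under 0.05, as did 38 to 534 genes per comparison. DESeq2 without a block called 0 of 176 tests of the 8 genes, 4 of them with an unadjusted p under 0.05, and 155 genes in all over the 22 comparisons, 10 of which had 0 calls. The run letters pair the libraries, and with the run as a block 6 of the 137 tests were called. These were 1 of 6 genes in arterial-like cells for the diet in mesentery (2.9% of all genes called), 1 of 6 there for the diet in adipose tissue (0.211%), 1 of 7 in venous-like cells for the tissue on chow (1.88%), 2 of 6 in lymphatic-like cells for the diet in mesentery (1.4%) and 1 of 6 there for the tissue on HFD (0.171%).

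The blocked fit called none of the 8 genes in the other comparisons. In all endothelial-like cells it called 0.138% of all genes for the diet in mesentery, 0.00767% for the diet in adipose tissue, 0.69% for the tissue on chow, 0% for the tissue on HFD and 0% for the interaction. In arterial-like cells it called 2.23% for the tissue on chow, 0.131% for the tissue on HFD and 0% for the interaction of diet and tissue. In capillary-like cells the shares were 0.63% and 1.18% for the diet in mesentery and adipose tissue and 0.155% and 0.165% for the tissue on chow and HFD. The run A sums behind these hold only 21 to 130 cells. In venous-like cells it called 0.49% for the diet in mesentery, 0.118% for the diet in adipose tissue and 0.098% for the tissue on HFD. In lymphatic-like cells it called 0% for the diet in adipose tissue and 1.64% for the tissue on chow.

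**Figure D1:**
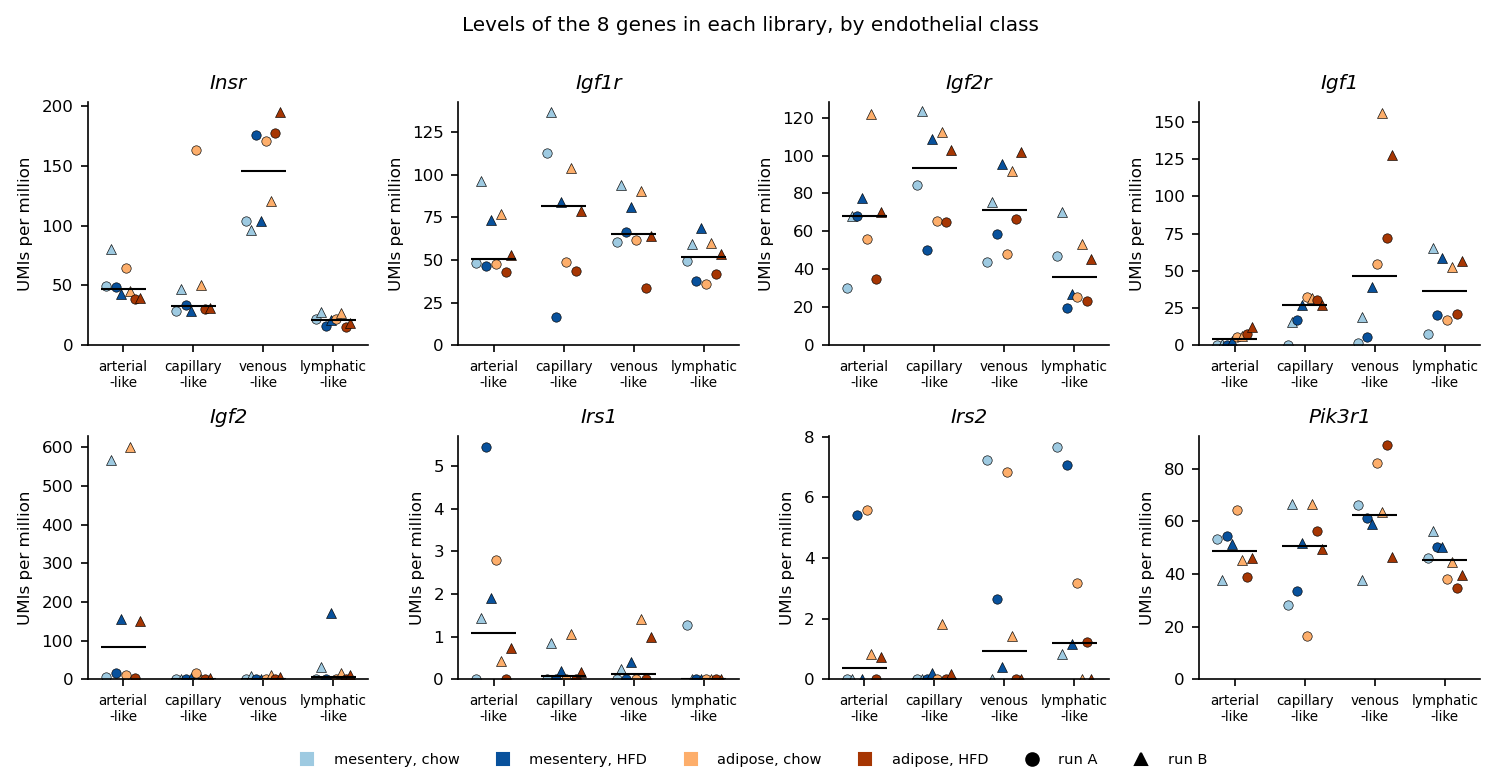
CPM of each of the 8 genes (vertical axes, linear) in the 4 endothelial classes; each point is 1 library, coloured by tissue and diet, with circles for run A and triangles for run B, and the bar is the median of 8 libraries. Insr stands at 96.0 CPM or more in every venous-like sum, and Igf2 above 150 CPM in arterial-like cells only in run B.

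The ligand Igf1, which carries growth hormone signals and is made by many mesenchymal cells, lies at chr10:87858265-87937042 on the plus strand (GRCm38). The antisense gene Igf1os overlaps it, and the sources used here do not say whether the counting used strand. Its level was lowest in arterial-like cells, with a median over 8 libraries of 4.14 CPM, against 27 in capillary-like, 36.6 in lymphatic-like and 46.8 in venous-like cells. Arterial-like cells were lower than capillary-like cells by a log2 difference of -2.31 ± 0.44 (SE, adjusted p = 0.00013 by edgeR), than venous-like cells by -3.76 ± 0.42 (2.1e-08) and than lymphatic-like cells by -3.43 ± 0.44 (1.2e-07). Venous-like and lymphatic-like cells did not differ by the test (0.34 ± 0.33, adjusted p = 0.47). Capillary-like cells were lower than venous-like cells by -1.45 ± 0.33 (0.0011) and than lymphatic-like cells by -1.12 ± 0.36 (0.011), but both calls ended with DESeq2 (adjusted p = 0.082 and 0.075) and with called doublets kept (0.094 and 0.17).

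The RefSeq promoter of Igf1 in the table used here (GRCm38.p6, chr10:87860861-87861160, plus strand, 250 bases before to 50 after the start) is shown because this gene had a tissue difference whose call did not rest on any 1 library. Capitals mark a CCAAT box on the reverse strand (ATTGG), a motif in 37.4% of 32851 promoters of this length searched on both strands.
Igf1: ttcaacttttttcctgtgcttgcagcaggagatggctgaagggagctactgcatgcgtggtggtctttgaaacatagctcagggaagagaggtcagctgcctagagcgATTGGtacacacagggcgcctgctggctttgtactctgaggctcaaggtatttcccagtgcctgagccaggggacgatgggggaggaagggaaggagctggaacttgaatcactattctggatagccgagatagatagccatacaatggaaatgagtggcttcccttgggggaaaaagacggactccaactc

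In venous-like cells Igf1 was lower in mesentery than in adipose tissue. It stood at 1.72 and 18.8 CPM in runs A and B of mesentery on chow, 5.33 and 38.8 in mesentery on HFD, 54.7 and 156 in adipose tissue on chow, and 72.2 and 128 in adipose tissue on HFD. All 4 adipose libraries lay above all 4 mesenteric ones. On chow the log2 difference was -3.38 ± 0.41 with the run as a block (adjusted p = 0.000246), and the call held without any 1 of the 8 libraries, with -3.02 to -4.93. It was smaller and still called with a mitochondrial limit of 20% (-2.54), with called doublets kept (-2.47) and with another random seed for the clustering (-2.30). With group means alone the same difference was -3.38 ± 0.99 (adjusted p = 0.985). On HFD it was -2.13 ± 0.43 with the block, which missed the threshold (0.0877). No test compared the tissue difference between the diets in venous-like cells.

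The venous-like class holds different clusters in the tissues: mesentery on chow had 458 and 533 cells of cluster 8, led by Plac8 and Adgrg6, whereas adipose tissue had 2 to 40 of these and 49 to 342 of cluster 4, led by Cysltr1 and Ackr1. Cluster 28, led by Glycam1 and Fut7, had 40 and 60 cells in mesentery on chow, 17 and 8 on HFD and 0 to 2 per adipose library. Within cluster 4 alone, Igf1 was at 3.2 and 53.9 CPM in mesentery on chow, 14.5 and 48.7 in mesentery on HFD, 56.5 and 156 in adipose tissue on chow and 75.8 and 132 in adipose tissue on HFD. Each adipose library again lay above all mesenteric ones, but the nearest values, 56.5 and 53.9, were almost equal. The run A sums of the whole venous-like class held few Igf1 counts. These were 5 in mesentery on chow, 2 in mesentery on HFD, 8 in adipose tissue on chow and 13 in adipose tissue on HFD. The part of the cluster makeup in the Igf1 difference was not tested.

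Some other cells in the sort carried more Igf1, whereas T-like cells had 0 counts of it. Fibroblast-like cells were at 66.6 and 69.9 CPM in mesentery on chow, 159.7 and 181 in mesentery on HFD, 734 and 895 in adipose tissue on chow and 410.2 and 607 in adipose tissue on HFD. This class too holds different clusters in the tissues. Cluster 27, led by Sfrp5, had 68 and 146 cells in mesentery on chow, 30 and 11 on HFD and 1 to 4 per adipose library, with Igf1 at 0 to 48.3 CPM. In cluster 21, led by Lum, Igf1 was at 259 to 269 CPM in the 3 mesenteric libraries with 10 or more cells and at 408 to 1208 in the adipose ones. The part of the clusters in the class difference was not tested. Macrophage-like cells ranged from 61.5 to 422 CPM over the 7 libraries that had 10 or more of them. Adipocyte-like cells were at 241 CPM in mesentery on chow (1 library) and 637 in adipose tissue on HFD (1 library). In adipose tissue on chow their mean was 654 ± 646 CPM (SD, 2 libraries). In the venous-like sums the 7 fibroblast markers together reached 15.0 to 32 CPM in mesentery and 13.5 to 178 in adipose tissue, the higher values in run A, and 1 to 7 of the 7 were above 0. The 8 macrophage markers reached 19.1 to 79.1 CPM in mesentery and 22.1 to 137 in adipose tissue, and the 8 adipocyte markers 3.4 to 321 and 0 to 1329. In run A of adipose tissue on chow all 8 adipocyte markers and 6 of 7 fibroblast markers were at 0, with Igf1 at 54.7 CPM. That sum has the fewest UMIs of the venous-like sums (146148, from 62 cells, with 8 Igf1 counts). Its values of 0 therefore set only loose limits. The 7 lymphatic markers were at 237 to 4557 CPM in the mesenteric venous-like sums and at 42.7 to 278 in the adipose ones. The part of these other cells in the Igf1 difference was not tested.

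**Figure D2:**
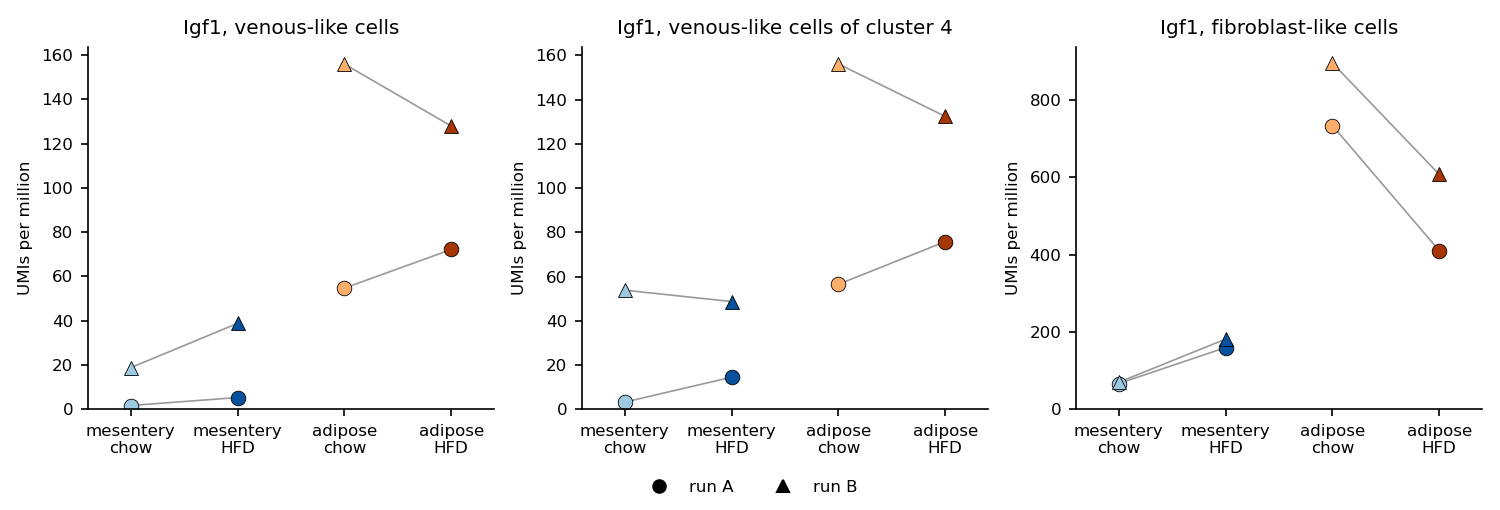
Igf1 in CPM (vertical axes, linear) for venous-like cells, venous-like cells of cluster 4 and fibroblast-like cells; each point is 1 library, circles for run A and triangles for run B, and grey lines join chow to HFD within a run and tissue. In the venous-like panel the adipose libraries lie at 54.7 to 156 CPM, above the mesenteric ones at 1.72 to 38.8.

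In arterial-like cells Igf1 was at 0 and 1.08 CPM in mesentery on chow, 0 and 2.68 in mesentery on HFD, 5.60 and 5.92 in adipose tissue on chow and 7.80 and 11.9 in adipose tissue on HFD. The 0 values allow up to 3.91 CPM in mesentery on chow and 8.15 in mesentery on HFD (3 counts). The adipose libraries held 2, 14, 2 and 32 counts, and neither tissue difference was called with the block (adjusted p = 0.228 on chow and 0.776 on HFD). In lymphatic-like cells Igf1 was higher in run B (52.3 to 65.4 CPM) than in run A (7.65 to 21), with no group standing apart.

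Over all endothelial-like cells, Igf1 was at 21.9 and 59.2 CPM in mesentery on chow and at 17.0 and 35.0 in adipose tissue on chow, so its order was the reverse of that in venous-like cells (blocked log2 difference 0.61 ± 0.23, adjusted p = 0.32). This set includes cluster 16, led by Marco and Msr1, which held no cell from adipose tissue and in which Igf1 was at 192 and 216 CPM in mesentery on chow and 105 in run A of mesentery on HFD.

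Igf2, the ligand of fetal growth, is an imprinted gene expressed from the paternal copy, at chr7:142650766-142666816 on the minus strand (GRCm38). In run B, of the 4 classes, its level was highest in arterial-like cells, except on HFD in mesentery, where lymphatic-like cells were at 173 CPM. In arterial-like cells it was at 6.52 and 567 CPM in mesentery on chow (runs A and B), 16.3 and 157 in mesentery on HFD, 11.2 and 599.9 in adipose tissue on chow and 3.90 and 151 in adipose tissue on HFD. Every run B library was above every run A library. The highest level was 16.3 CPM in any capillary-like sum (run A of adipose tissue on chow, above the arterial-like 11.2 of that library), 10.7 in any venous-like sum and 173 in any lymphatic-like sum. The medians of these classes were 1.51, 0.417 and 5.62 CPM. Arterial-like cells were higher than capillary-like cells by a log2 difference of 7.08 ± 0.60 (adjusted p = 8.8e-11 by edgeR), than venous-like cells by 5.85 ± 0.57 (1.5e-09) and than lymphatic-like cells by 2.96 ± 0.50 (1.0e-05). In run A alone Igf2 had too few counts for any class test. Lymphatic-like cells were called higher than capillary-like (4.12 in size, adjusted p = 3.3e-06) and venous-like cells, and both calls ended with DESeq2 (adjusted p = 0.58 and 0.27).

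The feature lists of the runs differ at this locus. Gm49394, a gene model on the same strand that spans Igf2 (chr7:142650769-142669942), is in the list of run A and not in that of run B. The last 300 bases of 6 of the 9 annotated Igf2 transcripts lie inside its transcript, and 3' libraries read those ends. Gm49394 itself had 0 counts in every run A class sum. Run A held 5, 6, 4 and 1 Igf2 counts in the arterial-like sums, and run B 1574, 409, 1419 and 407. The runs also differ in mice and in software version, and which of these moves with the Igf2 level was not tested. The antisense gene Igf2os also overlaps Igf2.

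Among the 4 Igf2 starts in the RefSeq table (GRCm38.p6), the one nearest the 3' end of the gene is shown, since Igf2 has the widest class difference of the 8 genes (chr7:142657447-142657746, minus strand). Capitals mark a CCAAT box on the reverse strand (ATTGG) and GC boxes (GGGCGG), a motif in 35.7% of the 32851 promoters.
Igf2: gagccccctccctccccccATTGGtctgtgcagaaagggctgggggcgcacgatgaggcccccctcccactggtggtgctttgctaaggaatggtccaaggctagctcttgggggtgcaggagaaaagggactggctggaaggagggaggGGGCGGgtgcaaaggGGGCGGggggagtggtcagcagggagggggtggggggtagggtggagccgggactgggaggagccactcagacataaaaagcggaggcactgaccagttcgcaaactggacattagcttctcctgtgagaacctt

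In run B, arterial-like Igf2 was lower on HFD than on chow in both tissues, 157 against 567 CPM in mesentery and 151 against 599.9 in adipose tissue. With the run as a block the log2 difference was -1.62 ± 0.36 in mesentery (adjusted p = 0.0159) and -1.90 ± 0.36 in adipose tissue (0.0245). With group means alone these were -1.70 ± 1.93 and -1.81 ± 1.94 (adjusted p of 1 for both). The calls rest on 1 library per group, because run A has 1 to 6 counts. Without run B of mesentery on chow the mesenteric difference was -0.10 (adjusted p = 0.995), and without run B of mesentery on HFD it was 0.90 (0.832). Without run B of adipose tissue on chow or on HFD the adipose adjusted p was 0.951 or 0.944. DESeq2 with the block made neither call, and the adipose call also ended with a mitochondrial limit of 20% (-1.34, adjusted p = 0.274), with called doublets kept (-1.20, 0.552) and with another clustering seed (-1.56, 0.0697).

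The arterial-like class is made of clusters 6, 7 and 24, and their Igf2 levels differ. In run B, cluster 7, led by Gkn3 and Dkk2, was at 1013.9 CPM in mesentery on chow, 344 in mesentery on HFD, 829.6 in adipose tissue on chow and 496 in adipose tissue on HFD. Cluster 6, led by Alox12, was at 78.2, 18.4, 35.2 and 9.5 CPM in the same order, and cluster 24, led by Klk10, at 498, 182 and 665 in the 3 libraries with 10 or more cells. Each cluster was thus lower on HFD than on chow where both could be compared. The makeup of the class moved too: in run B, cluster 6 gave 183 of 642 arterial-like cells in mesentery on chow and 289 of 488 on HFD, and 161 of 445 and 399 of 585 in adipose tissue. The summed adipocyte markers in the arterial-like sums of run B were 242 CPM in mesentery on chow, 78.2 on HFD, 587 in adipose tissue on chow and 41.5 on HFD, with 7 or 8 of 8 markers above 0. Adipocyte-like cells carried 3.42 and 3.07 CPM of Igf2 in run B. The part of the cluster makeup and of these other cells in the Igf2 difference was not tested.

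**Figure D3:**
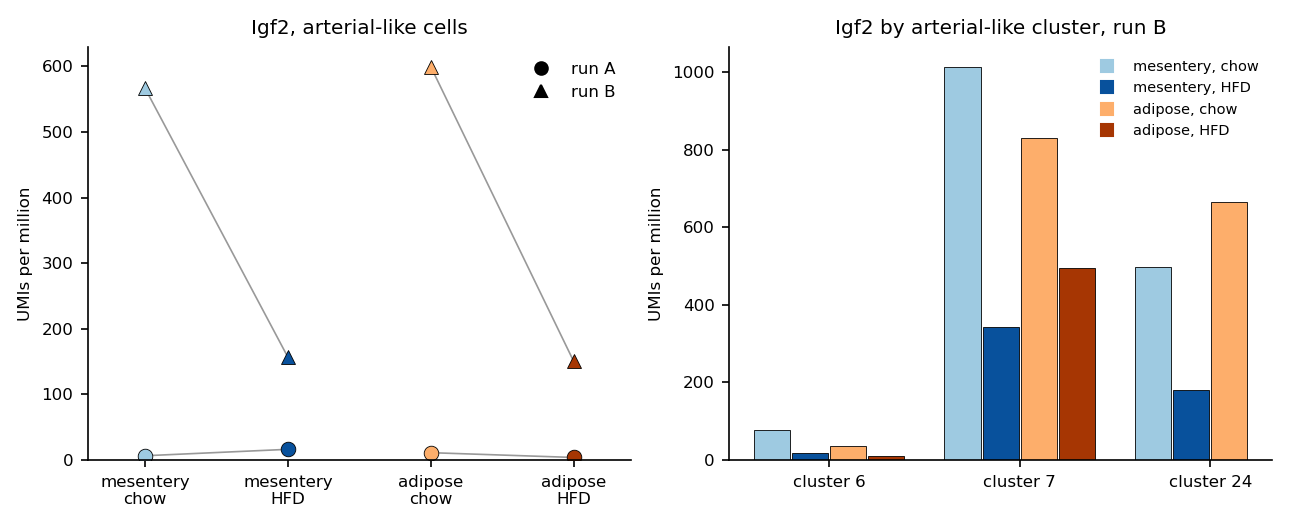
Igf2 in CPM (vertical axes, linear): at left 1 point per library in arterial-like cells, circles for run A and triangles for run B, joined within run and tissue; at right bars for the run B level in each arterial-like cluster. Run B falls from 567 to 157 and from 599.9 to 151 CPM, while run A stays at 16.3 or below, and cluster 7 is the highest of the clusters in every run B library.

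In lymphatic-like cells Igf2 was at 0 and 33.1 CPM in mesentery on chow, 0.785 and 173 in mesentery on HFD, 0 and 15.3 in adipose tissue on chow and 0 and 10.4 in adipose tissue on HFD. Run B of mesentery on HFD alone stood apart. The blocked fit called the diet in mesentery (2.33 ± 0.34, adjusted p = 0.00129) and the tissue on HFD (4.01 ± 0.43, 8.1e-05). Both calls rest on that library, which has 148 counts, 97 of them in 4 cells, and without it the adjusted p was 0.826 and 1. Without run B of mesentery on chow the diet call ended as well (0.795), and without run B of adipose tissue on HFD the tissue call ended (1).

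H19, the maternally expressed non-coding neighbour of Igf2, was on the list of pathway genes. In lymphatic-like cells it was at 6.37 and 6.62 CPM in mesentery on chow, 64.4 and 240.2 in mesentery on HFD, 1.06 and 1.27 in adipose tissue on chow and 12.3 and 8.12 in adipose tissue on HFD. Both HFD libraries of each tissue were above both chow libraries of that tissue, but the adipose values rest on few counts. These were 1 and 1 on chow and 10 and 7 on HFD (runs A and B), and the 7 lay in 1 cell. The blocked log2 difference for the diet in mesentery was 4.49 ± 0.42 (adjusted p = 2.9e-05), called without any 1 library (3.13 to 5.24), and DESeq2 without a block called it too (4.51, 0.000124). With group means alone edgeR gave 4.47 (0.361). The tissue difference on HFD was 3.76 ± 0.40 (8.1e-05) and ended without run B of adipose tissue on HFD (0.0877). Few cells carried the counts: 40 of 82 in run A and 180 of 206 in run B of mesentery on HFD lay in 4 cells each. Over all endothelial-like cells the diet in mesentery gave 5.02 ± 0.59 (0.0433), a call that ended without any 1 of 5 libraries (0.089 to 0.203) and with another clustering seed (0.0535).

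The receptor Insr lies at chr8:3122061-3279617 on the minus strand (GRCm38), with the antisense gene Gm16180 inside it. It was highest in venous-like cells. There it stood at 104 and 96.0 CPM in mesentery on chow (runs A and B), 176 and 104 in mesentery on HFD, 171 and 120.3 in adipose tissue on chow and 178 and 195 in adipose tissue on HFD, with a median of 145.7. Arterial-like cells ranged from 39.0 to 80.3 CPM (median 47.3), capillary-like cells from 28.2 to 163 (median 32.5) and lymphatic-like cells from 14.8 to 28.1 (median 21.3). Every venous-like value was above every arterial-like and lymphatic-like one. The single capillary-like value of 163 CPM came from run A of adipose tissue on chow, a sum of 46 cells and 10 counts.

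Venous-like cells exceeded arterial-like cells in Insr by a log2 difference of 1.44 in size (-1.44 ± 0.19 for arterial-like against venous-like, adjusted p = 3.3e-07 by edgeR) and capillary-like cells by 1.80 in size (-1.80 ± 0.21, 4.3e-08). Against lymphatic-like cells the difference was 2.84 ± 0.21 (1.9e-12). Lymphatic-like cells were also below arterial-like cells (1.40 ± 0.22, 4.8e-06) and capillary-like cells (1.04 ± 0.24, 0.00064). The call against capillary-like cells ended in run B alone (0.77, adjusted p = 0.079). Arterial-like and capillary-like cells, neighbours in this order, did not differ by the test (0.35 ± 0.21, adjusted p = 0.25).

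In the larger clusters of the venous-like class, Insr was at 88.7 to 248 CPM in cluster 8 and 94.0 to 218 in cluster 4. The blocked diet differences of Insr had opposite signs in the classes, 0.42 ± 0.27 and 0.54 ± 0.29 in venous-like cells of mesentery and adipose tissue against -0.68 ± 0.28 and -0.34 ± 0.31 in arterial-like cells. None was called, with adjusted p-values of 0.333 or more, and the difference between classes in the diet effect was not tested.

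Igf1r, the IGF-1 receptor, lies at chr7:67952827-68233668 on the plus strand (GRCm38) and was detected in every class and library. Its median was 50.5 CPM in arterial-like cells, 81.5 in capillary-like, 65.3 in venous-like and 51.6 in lymphatic-like cells. In each group and class the run A value was below that of run B, and the ranges of the classes overlapped (42.9 to 96.5, 16.8 to 137, 33.3 to 93.8 and 35.9 to 68.8). Lymphatic-like cells were lower than capillary-like cells by a log2 difference of 0.70 ± 0.13 in size (adjusted p = 4.6e-05 by edgeR) and than venous-like cells by 0.53 ± 0.12 (0.00087). Both calls ended in run A alone (adjusted p = 0.743 and 0.0627). Arterial-like cells were called lower than capillary-like cells (-0.38 ± 0.12, 0.021) and higher than lymphatic-like cells (0.32 ± 0.12, 0.041), and these calls held in 10 and 6 of 17 alternatives, the first with a changed sign in 1, ending for example without low-count filtering (0.0639 and 0.0883). No diet or tissue difference of Igf1r was called, and the largest blocked one was -0.80 ± 0.39 in capillary-like cells for the diet in mesentery (adjusted p = 1).

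Igf2r lies at chr17:12682406-12769664 on the minus strand (GRCm38) and is imprinted in mice, with expression from the maternal copy in most tissues. The antisense gene Airn, which silences the paternal copy, overlaps it. Its median was 68.0 CPM in arterial-like cells, 93.6 in capillary-like, 71.2 in venous-like and 36.0 in lymphatic-like cells. Lymphatic-like cells were lower than arterial-like (0.81 ± 0.18 in size, adjusted p = 0.00053 by edgeR), capillary-like (1.23 ± 0.19, 3.1e-06) and venous-like cells (0.98 ± 0.18, 5.7e-05). The other 3 pairs of classes did not differ by the test (adjusted p of 0.087 to 0.55). In run A alone the arterial-like and capillary-like differences from lymphatic-like cells kept their size, 0.77 and 1.19, and missed the threshold (0.0574 and 0.0619).

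The RefSeq promoter of Igf2r (GRCm38.p6, chr17:12769657-12769956, minus strand) is shown because Igf2r is the receptor with a diet difference called in the blocked fit. Capitals mark GC boxes (GGGCGG), E-boxes (CACGTG) and, over the second E-box, a CLEAR element (the E-box with GT before and AC after it), the motif found at many lysosomal genes and bound by TFEB. The full element is in 0.326% of 32851 promoters and in 1 of the 11 of these genes, and an E-box is in 7.15%, among them Irs1 and Irs2.
Igf2r: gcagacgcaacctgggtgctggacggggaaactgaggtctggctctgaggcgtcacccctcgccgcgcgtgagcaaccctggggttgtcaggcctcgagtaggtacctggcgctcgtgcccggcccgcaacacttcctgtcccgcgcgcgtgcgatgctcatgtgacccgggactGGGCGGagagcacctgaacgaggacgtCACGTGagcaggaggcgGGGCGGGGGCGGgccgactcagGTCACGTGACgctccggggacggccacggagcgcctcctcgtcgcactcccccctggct

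In lymphatic-like cells of mesentery, Igf2r was lower on HFD. It was at 47.2 and 70.3 CPM in mesentery on chow (runs A and B), 19.6 and 26.8 in mesentery on HFD, 25.4 and 53.5 in adipose tissue on chow and 23.4 and 45.3 in adipose tissue on HFD. Both mesenteric HFD libraries were below both mesenteric chow libraries, whereas the adipose groups overlapped. The blocked log2 difference in mesentery was -1.32 ± 0.27 (adjusted p = 0.0176), and with group means alone it was -1.36 ± 0.44 (unadjusted p = 0.0142, adjusted p = 1). The call ended without run A (0.0815) or run B (0.082) of mesentery on chow, without run B of mesentery on HFD (0.277) and with DESeq2 (0.296), at sizes of 1.11 to 1.43. In adipose tissue the blocked difference was -0.18 ± 0.28 (adjusted p = 1), and the difference between the tissues was not tested in this class.

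In cluster 5, the Lyve1 cluster of the lymphatic-like class, Igf2r was at 59.2 and 73.4 CPM in mesentery on chow and 21 and 20.5 on HFD, and at 31.1, 61.3, 27.1 and 38.5 in adipose tissue in the order above. The counts behind the mesenteric class values were 37 and 85 on chow and 25 and 23 on HFD. The lymphatic markers of the same sums were at 26267 and 30524 CPM on chow and 30659 and 38312 on HFD in mesentery, fibroblast markers at 22.9 and 45.5 against 22.0 and 67.6, and macrophage markers at 176 and 91.9 against 186 and 155. Their part in the Igf2r difference was not tested.

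**Figure D4:**
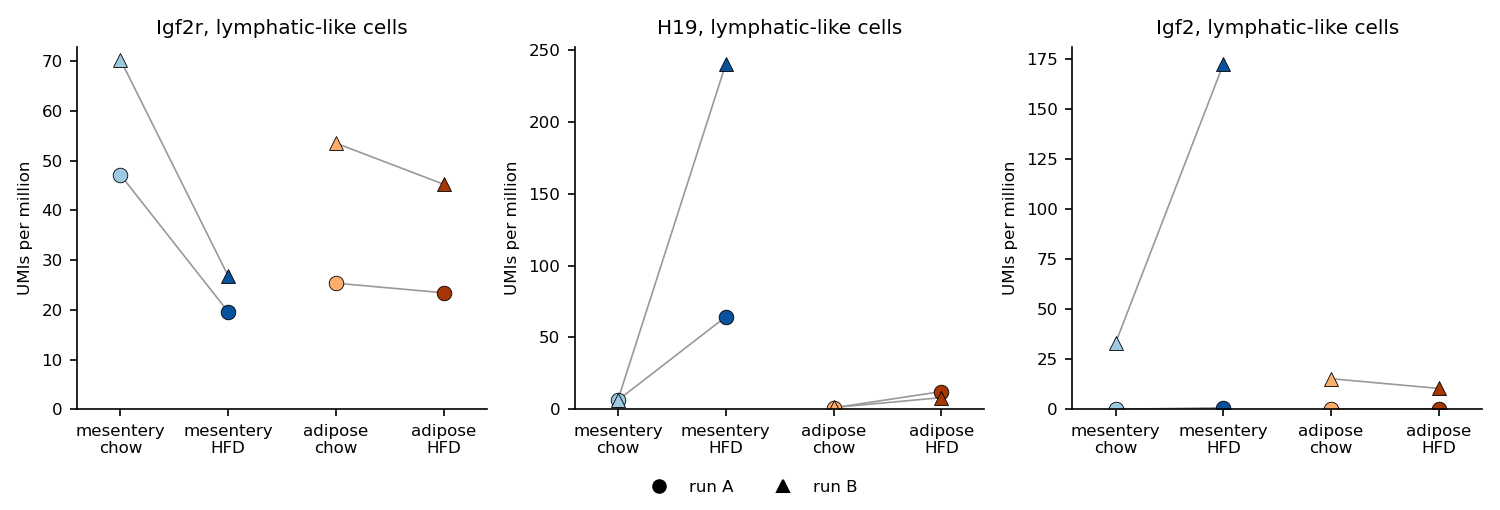
Igf2r, H19 and Igf2 in lymphatic-like cells, in CPM (vertical axes, linear, each from 0); each point is 1 library, circles for run A and triangles for run B, joined from chow to HFD within run and tissue. In mesentery both lines of Igf2r fall, to 19.6 and 26.8 CPM, and both lines of H19 rise, while the Igf2 rise to 173 CPM is in run B only.

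In arterial-like cells the tissues had opposite signs for Igf2r. It was at 30.0 and 68.0 CPM in mesentery on chow, 67.9 and 77.4 on HFD, 56.0 and 122 in adipose tissue on chow and 35.1 and 70.5 on HFD. The interaction of diet and tissue was 1.12 ± 0.38 with the block (adjusted p = 0.821) and was not called.

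The docking proteins Irs1 (chr1:82233101-82291416, minus strand) and Irs2 (chr8:10984681-11008458, minus strand, both GRCm38) were near the limit of detection in these 3' libraries. All endothelial-like cells together held 41 counts of Irs1 and 184 of Irs2. No class sum exceeded 5.43 CPM of Irs1 or 7.65 CPM of Irs2, and neither had enough counts for edgeR's tests between classes. DESeq2 without that filter called neither. Irs2 passed the filter for diet and tissue in venous-like cells, with 21 of its counts there in run A of mesentery on chow and 0 to 2 in each other library, and no comparison was called. Over all endothelial-like cells, where it could also be tested, Irs2 was at 9.89 and 4.08 CPM in mesentery on chow, 11.3 and 0.337 in mesentery on HFD, 3.49 and 1.39 in adipose tissue on chow and 0.501 and 0.321 in adipose tissue on HFD, and no comparison was called. Fibroblast-like cells had more of both, with Irs1 at 5.62 to 22.6 CPM and Irs2 at 84.3 to 175 in run A and 21.8 to 34.9 in run B. The antisense genes Gm9747 (at Irs1) and 9530052E02Rik (at Irs2) overlap them, the latter only in the list of run B.

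Pik3r1, which holds the catalytic subunit of PI3K inactive until a phosphorylated docking protein binds, lies at chr13:101680563-101768217 on the minus strand (GRCm38). It was the most even of the 6 testable genes across classes, with medians of 48.7 CPM in arterial-like, 50.6 in capillary-like, 62.3 in venous-like and 45.3 in lymphatic-like cells. Lymphatic-like cells were called lower than capillary-like cells (0.42 ± 0.17 in size, adjusted p = 0.049 by edgeR) and venous-like cells (0.45 ± 0.16, 0.030). The call against capillary-like cells held in 2 of 17 alternatives, with a changed sign in 1, and that against venous-like cells held in 8 of 17, and without run A of mesentery on chow the adjusted p was 0.0724 and 0.0968. In lymphatic-like cells Pik3r1 was at 45.9 and 56.3 CPM in mesentery on chow, 50.2 and 50.1 on HFD, 38.1 and 44.6 in adipose tissue on chow and 34.5 and 39.5 on HFD. No diet or tissue difference was called in any class, and its blocked differences lay between -0.49 ± 0.30 (venous-like, tissue on chow) and 0.46 ± 0.25 (lymphatic-like, tissue on HFD).

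**Figure D5:**
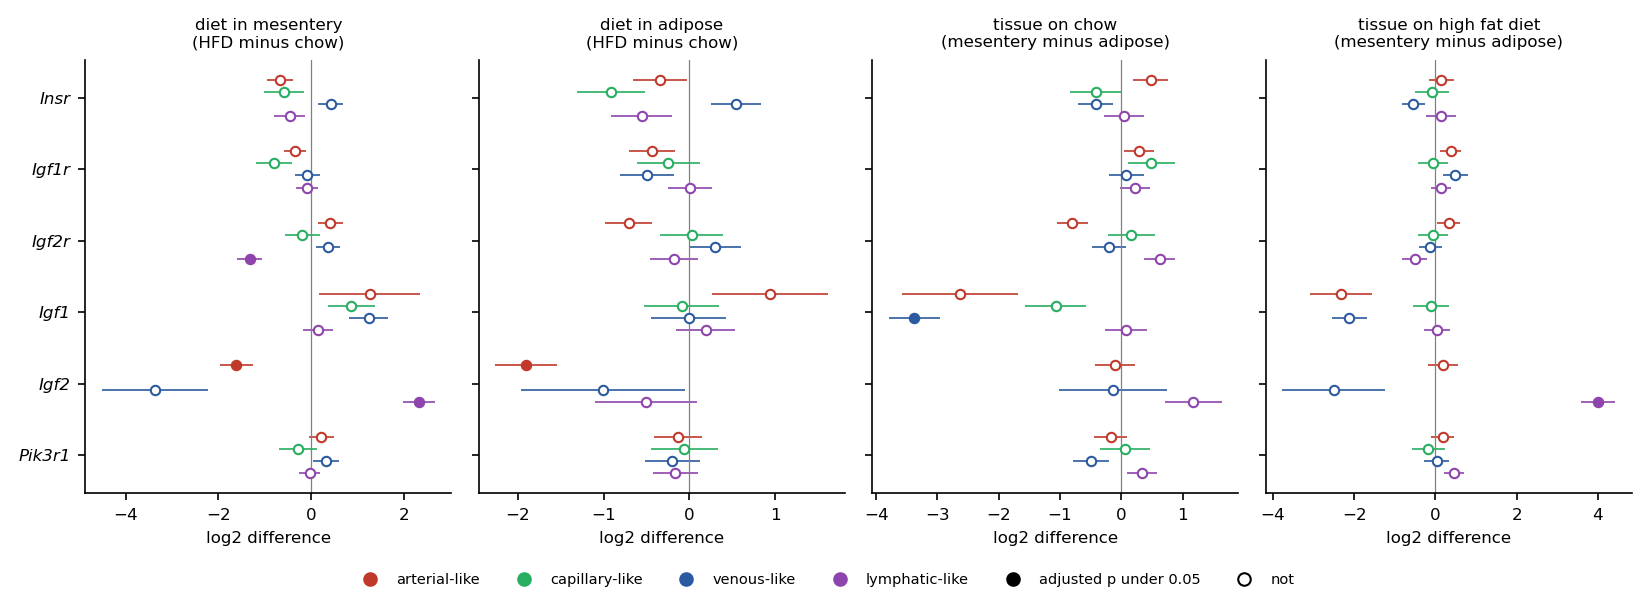
Log2 differences (horizontal axes) of the 6 genes in each comparison of diet or tissue, from the edgeR fit with the run as a block; colours are classes, bars are 1 SE, filled points have an adjusted p under 0.05 and open points do not. The filled points are arterial-like Igf2 for the diet in both tissues, venous-like Igf1 at -3.38 for the tissue on chow, and lymphatic-like Igf2r and Igf2.

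The wider pathway was followed with a list of 67 genes, of which 56 could be tested between classes. Arterial-like cells had 6 higher and 7 lower than capillary-like cells (26.2% of all genes called), 11 higher and 8 lower than venous-like cells (26%), and 17 higher and 12 lower than lymphatic-like cells (42.7%). Capillary-like cells had 10 higher and 5 lower than venous-like cells (26.4%) and 16 higher and 9 lower than lymphatic-like cells (41.7%), and venous-like cells had 15 higher and 10 lower than lymphatic-like cells (38.4%). These background shares stand beside the counts, and nothing particular to the list was tested. The median log2 differences of the list were -0.02, 0.05, 0.04, 0.12, 0.16 and 0.13 in that order, beside 0.01 or less in size over all genes.

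Among receptor-level partners, Ptprf, a receptor phosphatase that can act on the insulin receptor, was at 38.3 to 73.0 CPM in lymphatic-like cells and at 4.33 or less in every sum of the other classes (arterial-like against lymphatic-like, -6.61 ± 0.35, adjusted p = 5.2e-16). The adaptor Shc1, which links the receptors to the RAS pathway, had a median of 125 CPM in lymphatic-like cells and 27 to 35.9 in the others. Sh2b2, an adaptor that binds the activated insulin receptor, was found mainly in venous-like cells, with a median of 10.3 CPM against 0.322 or less (arterial-like against venous-like, -4.46 ± 0.46, 4.1e-09). Thus Insr and Sh2b2 were highest in the same class, and Shc1 and Ptprf in the class where Insr was lowest. Grb10, an inhibitor of both receptors, was lower in arterial-like than in capillary-like cells (-0.84 ± 0.20, 0.0013).

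PI3K subunits beside Pik3r1 were less even. Pik3r3, another regulatory subunit, had medians of 69.8 CPM in arterial-like, 34.1 in capillary-like, 11.8 in venous-like and 6.96 in lymphatic-like cells (arterial-like against venous-like, 2.57 ± 0.19, adjusted p = 2.8e-12). Pik3ip1, an inhibitor of PI3K, was at 62.8, 32.7, 34.3 and 11.5 CPM in the same order. The catalytic subunit Pik3cb had a median of 34.8 CPM in capillary-like and 8.85 in venous-like cells (1.30 ± 0.23, 5.3e-05). Pik3c2a, a class II PI3K, was higher in capillary-like than in lymphatic-like cells (1.51 ± 0.15, 6.3e-10).

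Downstream of PI3K, Tbc1d4, the AKT substrate that controls GLUT4 traffic, had a median of 148 CPM in lymphatic-like cells against 10.5 to 19.3 in the others (arterial-like against lymphatic-like, -3.46 ± 0.21, adjusted p = 8.0e-15), and its relative Tbc1d1 was highest in arterial-like cells, at 44.6 against 16.7 to 19.1. The mTOR inhibitor Deptor was low in lymphatic-like cells, with a median of 2.48 CPM against 24.1 to 30.3 in the other classes (venous-like against lymphatic-like, 3.28 ± 0.29, 1.2e-10). Foxo1, a transcription factor that AKT inhibits, was higher in venous-like than in capillary-like cells, with medians of 143 and 86.1 CPM (-0.72 ± 0.11 for capillary-like against venous-like, 9.1e-06). Eif4ebp1, a repressor of translation, was lower in arterial-like than in venous-like cells (-0.72 ± 0.13, 4.5e-05). On the RAS branch, Mapk3, which encodes the kinase ERK1, was highest in arterial-like cells, with a median of 336 CPM against 140.4 in venous-like cells (1.22 ± 0.12, 7.8e-10), Sos1 was higher there too (1.08 ± 0.19, 4.0e-05), and Hras was higher in capillary-like than in venous-like cells (1.00 ± 0.17, 4.2e-05).

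For diet and tissue, edgeR with group means alone and its filter on low counts called no gene of the list. DESeq2 without a block called 1, H19: in lymphatic-like cells for the diet in mesentery (adjusted p = 0.000124) and the tissue on HFD (0.00467), and over all endothelial-like cells for the diet in mesentery (0.0451). With the block, 3 of the 51 tested were called for the diet in mesentery in lymphatic-like cells, where 1.4% of all genes were, all higher on HFD: H19, Ddit4 and Tbc1d4. Ddit4, a stress-induced inhibitor of mTOR, was at 25.5 and 44.7 CPM on chow and 62.8 and 83.9 on HFD (1.04 ± 0.25, adjusted p = 0.0441). Tbc1d4 was at 101 and 80.3 CPM on chow and 179.8 and 175 on HFD (0.97 ± 0.20, 0.0214). The HFD libraries were above the chow libraries for both genes, but each call ended without any 1 of the 4 mesenteric libraries and with DESeq2 (0.339 and 0.0871), and that of Ddit4 with another clustering seed (0.0955). Besides H19 for the diet in mesentery over all endothelial-like cells and for the tissue on HFD in lymphatic-like cells, the blocked fit called no other gene of the list in any of the 22 comparisons.

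Genes with the pattern most like each of the 8 across the 32 sums, after each value was centred on its library, were ranked by Pearson's r among 10199 genes. This is a description over sums that share libraries. For Insr they were Lifr (0.94), Ret (0.89) and Gpx1 (0.89), for Igf1 Gngt2 (0.86), Tshz2 (0.84) and Zmiz1 (0.84), and for Igf2 Amd1 (0.83), Prom1 (0.82) and Pdcd4 (0.82). For Igf2r they were Fabp5 (0.87), Mxra7 (0.87) and Cd38 (0.87), for Igf1r Rpl27 (0.82), Zfp984 (0.81) and Ndufb11 (0.77), and for Pik3r1 Rnf122 (0.81), Rom1 (0.80) and Naprt (0.80).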

How the data were processed

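The deposited matrices hold raw UMI counts per gene and barcode, already limited to called cells. Per the file headers, run B was made with Cell Ranger 5.0.0, and run A gives software version 3.0.2 with no name. Per the submitters' processing notes the build was mm10, and Seurat 4.3.0 is listed with no role. The sources used here do not give the annotation or whether counting used strand. Reads per UMI are unknown, and limits for a count of 0 (3 counts) cover counting error only.

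Genes were matched between runs by identifier, and 99.6 to 99.9% of each library's UMIs lay in shared genes. Cells had at least 500 UMIs, 300 genes and at most 10% mitochondrial counts. Scrublet's own threshold marked 40 cells (0.167%), so the highest scores up to the expected share were removed instead, 763 cells (3.18%). Clustering used scanpy 1.11.5 (2000 variable genes without the 8 genes and the pathway list, 30 components brought together across the runs with a Harmony-type correction, 20 neighbours, Leiden resolution 1.0) and gave 32 clusters. These were named from markers where at least 3 were raised 1.5-fold, with a mean log2 fold of 0.5 or more. Clusters with few UMIs and no own marker among the 10 leading genes stayed unnamed. So did those whose leading genes held more markers of another class, as in clusters 18 (438 cells, arterial) and 14 (674, fibroblast). Endothelial clusters were called mixed where markers of another cell type met the same and further limits, some of them among the 20 leading genes.

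Counts were summed per library and class (10 or more cells) and tested with edgeR 4.0.16 (TMM, filterByExpr, quasi-likelihood), which needs no pseudocount. The main fit for diet and tissue has group means alone. The labels describe the runs as separate repeats of the experiment, and libraries of the same run deviated together (correlations over the 6 pairs of groups 0.61 to 0.76 in all endothelial-like cells, 0.51 to 0.63 in arterial-like, 0.22 to 0.32 in capillary-like, 0.40 to 0.61 in venous-like and 0.62 to 0.69 in lymphatic-like cells), so values with the run as a block are given beside the main ones. DESeq2 1.42.0, other cell filters, another resolution or random seed, single runs and each library left out were the alternatives. The fits were also tried on simulated data with a fixed dispersion, whose outcome is not reported here. A run effect was added there only for the blocked fits, so the fit with group means alone was not tried with it. For diet and tissue, p-values measure the spread between pools of 6 mice, after the run difference is removed where the run is a block. Between classes, where the library is a block, they measure how the class differences vary over the libraries.

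The 8 genes, the list of 67 pathway genes and the marker lists were chosen with earlier results of these data known. Named pathway genes are, per comparison, at most the 6 with the smallest p among those called, and 1 gene that the rule names is not reported here. Genes with a like pattern have the highest Pearson correlation of log2(CPM + 1), computed from the deposited counts and centred per library. Promoter and gene coordinates come from GRCm38, the Genome Reference Consortium name of mm10.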

Additional observations from a re-analysis of the deposited data

Results flagged for a closer look

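Igf1 over all endothelial-like cells moved in opposite directions with diet in the tissues. The log2 difference of HFD from chow within a run was -0.06 and -1.10 in mesentery (runs A and B) and 0.61 and 0.31 in adipose tissue, a contrast of -1.04 between the mean of mesentery and that of adipose tissue. The interaction in the blocked edgeR fit was -1.14 ± 0.34 (adjusted p = 0.772), so the difference between the tissues was not called. Cluster 16, rich in Igf1 in mesentery as given above, is part of this set. It had 109 and 433 cells in mesentery on chow (runs A and B), 31 and 2 on HFD, and 0 in adipose tissue. The part of this makeup in the contrast was not tested.

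Igf2r in arterial-like cells also had opposite signs, 1.18 and 0.19 in mesentery and -0.63 and -0.79 in adipose tissue, a contrast of 1.39. The blocked interaction was 1.12 ± 0.38 (adjusted p = 0.821 by edgeR) and was not called.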

How the results depend on the processing

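Of 1529 alternatives tried for log2 differences of single genes, 1380 kept the direction and the call. Another 750 alternatives gave counts of genes called, and 698 of these equalled or lay near the main count. A count of 4 in place of 6 passed as near, so some of these lost calls. Many others were 0 against 0, because the main fit with group means alone called 0 genes in all 22 comparisons. With the replicate block (run A or B), the number of the 8 genes called rose from 0 to 1 in arterial-like cells for the diet in mesentery and in adipose tissue, to 1 in venous-like cells for the tissue on chow, to 2 in lymphatic-like cells for the diet in mesentery and to 1 there for the tissue on HFD. It changed no other count. Without a filter on low counts, 1 of the 8 genes was called in each of these 5 comparisons, and 1 in venous-like cells for the tissue on HFD (Igf1). DESeq2 with the block called 1 of the 8 genes in venous-like cells (tissue on chow) and 1 in lymphatic-like cells (tissue on HFD). It called 0 for the arterial-like diet comparisons and the lymphatic-like diet in mesentery. Over the 22 comparisons it called 2 of 176 tests of the 8 genes, beside 1301 calls over all genes. For the other alternatives to the diet and tissue fits the shares of all genes called are not given. Those counts therefore only follow the calls of the 8 genes.

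In the blocked fit, a mitochondrial limit of 20% gave 0 calls for the arterial-like diet in adipose tissue, 1 for the arterial-like tissue on chow and 1 for the venous-like tissue on HFD (both Igf1), and keeping doublets gave 0 for the arterial-like diet in adipose tissue. Clustering from another random seed gave 0, 1 and 1 for the same 3 comparisons, so class borders differ between runs of the clustering. These settings in the blocked fit were chosen after seeing the data. With 1 library left out, blocked counts ran from 0 to 2 for the diet in mesentery over all endothelial-like cells (Igf1 and Igf2 without run A of mesentery on chow) and 0 to 1 for the tissue on chow there. They ran from 0 to 1 for both arterial-like diet comparisons, 0 to 1 for the venous-like diet in mesentery, 0 to 1 for the venous-like tissue on HFD, 0 to 2 for the lymphatic-like diet in mesentery and 0 to 1 for the lymphatic-like tissue on HFD. The cause of these changes was not tested.

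Between classes, run A alone called 0 genes for arterial-like against capillary-like, 2 for arterial-like against lymphatic-like, 1 for capillary-like against venous-like, 1 for capillary-like against lymphatic-like and 3 for venous-like against lymphatic-like cells. Capillary-like against venous-like cells had 1 call of 6 with no block (1650 of all 9052 genes called). They had 1 of 8 with DESeq2 (3042 of 19668) and 1 of 6 with doublets kept (2717 of 10131). Capillary-like against lymphatic-like cells had 3 of 8 with DESeq2 (5089 of 19668).

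Some signs changed. With group means alone and 1 library left out, Igf2 in arterial-like cells ran from -4.07 to 3.59 for the diet in mesentery and from -6.13 to 2.80 for the diet in adipose tissue, and in the blocked fit from -1.86 to 0.90 for the diet in mesentery. In lymphatic-like cells it ran from -4.20 to 9.20 for the diet in mesentery and from -2.50 to 9.29 for the tissue on HFD. Each of the reversed values came from leaving out 1 run B library. Pik3r1 in capillary-like against venous-like cells ran from -0.22 to 0.013, and Igf1 in venous-like against lymphatic-like cells from -0.042 to 0.85. Igf2 in capillary-like against venous-like cells was 0.73 with DESeq2. Igf1r was 0.0080 in arterial-like against capillary-like cells in run A, and -0.35 in run A and -0.071 with doublets kept in capillary-like against venous-like cells. Pik3r1 was 0.42 in arterial-like against capillary-like and -0.00080 in capillary-like against lymphatic-like cells in run A, and -0.049 in arterial-like against lymphatic-like and 0.17 in capillary-like against venous-like cells in run B. Igf1 was 0.022 in capillary-like against lymphatic-like cells in run A. Few counts limit Irs1 and Irs2 in all classes and every capillary-like value of run A.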

Other observations

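Cluster 23, an endothelial-like cluster that could not be named and is led by Col13a1, Ramp3 and Esm1, carried Insr at 313.8 and 214 CPM in adipose tissue on chow (runs A and B) and 325.0 in run A of adipose tissue on HFD. In mesentery it was at 102 and 77.1 CPM on chow and 38.4 and 43.0 on HFD. These sums hold 58, 42, 24, 24, 203, 13 and 16 cells. Insr was above the venous-like class of the same library in the 3 adipose sums and below it in the 4 mesenteric ones, a pattern chosen after its values were seen and not tested.

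Cluster 16, led by Marco, Msr1 and Coch and found only in mesentery, had Igf1r at 296 and 176 CPM on chow and 167 in run A on HFD. The highest Igf1r level in any sum of the 4 named classes was 137 CPM. In the lymphatic-like class, Igf1 was higher in cluster 17 (20.8 to 132 CPM), led by Spp1, than in cluster 5 (0 to 43.8 CPM) in each of the 8 libraries.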
